A study of Arabidopsis thaliana with 21 samples.

Results

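The genes described here are the A-, B- and D-type cyclins, the cyclin-dependent kinases (CDKs) of the A and B types and the CDK inhibitors of the KRP and SMR families in Arabidopsis seedlings. They were taken from the 32833 genes of the count table by name: 34 names began with CYCA, CYCB, CYCD, CDKA, CDKB, KRP or SMR and a number, and 31 of those had at least 10 counts in 3 or more of the 21 libraries. The 31 genes were 9 D-type, 7 A-type and 9 B-type cyclins, 4 B-type CDKs and 2 KRP inhibitors. The table's names carry a semicolon (CYCD1;1), which is printed as a hyphen from here on (CYCD1-1). CYCA2-1, with 10 counts over all libraries, CYCD7-1, with 3, and CYCA3-3, with 0, fell below the count minimum. No gene was listed under a CDKA or SMR name, because the table lists CDKA-1 as CDC2 and gives 23 genes of these families, CDKA-1 included, other names. All 31 genes passed the filter on low counts and were among the 20234 genes tested.

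Cyclins are the regulatory partners of CDKs, and each type acts in its own window of the plant cell cycle. D-type cyclins bind CDKA-1, respond to sugars and hormones, and start the phosphorylation of the retinoblastoma protein that frees E2F factors at the entry into S phase. A-type cyclins act from S phase to mitosis, and B-type cyclins with the plant-specific B-type CDKs act at the entry into mitosis. Many genes for mitotic cyclins are read by MYB3R factors at a promoter element called MSA. KRP proteins, relatives of the animal inhibitor p27Kip1, and the SIAMESE-related SMR proteins bind cyclin-CDK complexes and hold them inactive. In a young seedling dividing cells sit mainly in the shoot and root meristems, young leaves and vascular tissue.

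Whole 7-day-old seedlings of Arabidopsis thaliana were sequenced as poly-A RNA in 7 groups of 3 libraries. Wild type (Col-0) and the hy5 mutant, whose allele the labels do not name, were each taken at 100 µmol m-2 s-1 (growth light) and after 2 h at 500 µmol m-2 s-1 (high light). The mutated gene encodes HY5, a bZIP factor of light-grown development. The other 3 groups, in growth light alone, were hy5 mutants that carried HY5-GFP under the constitutive 35S promoter: K87K (unchanged lysine, in hy5-1), K87Q (glutamine, which mimics acetyl-lysine, in hy5-1) and K87R (arginine, which cannot be acetylated, in hy5-2). For K87Q and K87R, substitution, transgenic line and, for K87R, the hy5 allele change together and cannot be told apart. The libraries are called biological replicates in the labels, which do not say how plants were pooled.

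Total counts per library ran from 7283290 to 22101539, so that 1 CPM (the unit of level used here, on library sizes scaled by TMM) stood for about 15.1 counts, and the 31 genes together took 1290 to 6417 counts of a library. HY5 had 88 to 150 counts in the wild-type growth-light libraries, 1 to 14 in those of hy5, 555 to 1275 in wild type in high light, 0 to 12 in hy5 in high light and 2758 to 7087 in the 3 lines, where counts do not separate the transgene from the endogenous gene. Both high-light replicates 3 stood apart. Plastid genes took 6.52% and 7.30% of their counts, against at most 4.15% in any other library, and the summed level of 5 green shoot markers was 5571 CPM in wild type and 2131 CPM in hy5, against 36620 to 59860 CPM in the other 4 high-light libraries. Spearman correlations between replicates were 0.974 to 0.989 in growth light and 0.777 to 0.957 in high light. Results from high light are therefore given with and without both of these libraries.

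The 250 bases before the annotated start of each gene were read from the RefSeq TAIR10.1 genome, in which all 31 genes have the same start and end as in the count table. The MSA core, AACGG on either strand, was present in 11 of the 31 windows, against 20.6% of 27412 promoter windows of the same length. It was found in 5 of 9 B-type and 3 of 7 A-type cyclins, and in 1 gene each of the D-type cyclins, B-type CDKs and KRP genes. The G-box core CACGTG, the element best known for HY5 binding, was present in 1 window, that of CYCB2-3, against 6.48% of all windows. The E2F motifs TTTCCCGC and TTTGGCGC were present in 1 window, that of CYCD3-3, against 0.956%. A match describes letters only and shows no binding.

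The windows of 4 genes that the results turn on are printed 5′ to 3′ on the gene's strand, with the MSA core of either strand in capitals. CYCA1-1 (chr1:16777353-16777602, minus strand) and CYCB1-1 (chr4:17624309-17624558, minus strand), which act in mitosis, hold the core at positions -205 and -182 and at -168, -61 and -13 from the start. The B-type cyclin gene CYCB2-4 (chr1:28630790-28631039, minus strand) and the D-type CYCD1-1 (chr1:26439306-26439555, plus strand) hold none of the 3 motifs searched.
CYCA1-1: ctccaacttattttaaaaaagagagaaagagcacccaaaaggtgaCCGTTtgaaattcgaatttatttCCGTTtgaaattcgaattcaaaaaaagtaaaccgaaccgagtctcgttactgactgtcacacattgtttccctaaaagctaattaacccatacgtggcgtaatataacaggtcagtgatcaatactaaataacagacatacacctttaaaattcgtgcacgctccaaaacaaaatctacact
CYCB1-1: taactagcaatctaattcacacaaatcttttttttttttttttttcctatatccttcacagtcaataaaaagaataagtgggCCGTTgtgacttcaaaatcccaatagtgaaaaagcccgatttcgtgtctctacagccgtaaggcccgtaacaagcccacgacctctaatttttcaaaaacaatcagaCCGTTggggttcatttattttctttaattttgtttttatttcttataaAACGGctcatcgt
CYCB2-4: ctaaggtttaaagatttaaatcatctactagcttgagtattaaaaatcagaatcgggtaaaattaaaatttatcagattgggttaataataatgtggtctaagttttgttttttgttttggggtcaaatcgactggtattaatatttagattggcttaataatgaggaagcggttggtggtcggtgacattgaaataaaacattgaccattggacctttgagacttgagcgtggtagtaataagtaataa
CYCD1-1: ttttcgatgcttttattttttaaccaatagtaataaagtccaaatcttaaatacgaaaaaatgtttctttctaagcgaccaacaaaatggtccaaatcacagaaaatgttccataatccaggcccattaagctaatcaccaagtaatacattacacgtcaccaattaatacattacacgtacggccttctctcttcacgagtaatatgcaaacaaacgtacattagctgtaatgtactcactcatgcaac

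In wild type in growth light the D-type cyclins CYCD3-2 and CYCD3-3 had the highest levels per length of the 31 genes. They belong to the CYCD3 group, which acts downstream of cytokinin in the shoot. CYCD3-2 stood at 37.0 ± 3.05 CPM per kb of gene length (SD, n = 3) and CYCD3-3 at 17.4 ± 2.49 CPM per kb. The B-type kinase gene CDKB2-1, needed for the G2 to M step, followed at 8.33 ± 0.246 CPM per kb. The libraries of CYCD1-1 (7.88 ± 0.920 CPM per kb) overlapped with those of CDKB2-1 and of CYCD3-1 (7.50 ± 0.193 CPM per kb), while CYCD3-1 lay below CDKB2-1 in all libraries. CDKA-1, the kinase partner of the D-type cyclins, was at 33.8 CPM per kb.

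The other levels per kb formed a continuous series. KRP2 was at 6.15 CPM per kb, the S-phase cyclin CYCA3-4 at 5.33, and CYCD2-1, known for its link to sugar supply, at 4.94. CYCA1-1 was at 3.59 CPM per kb, CYCB1-1, the standard marker of cells between G2 and mitosis, at 1.32, KRP6 at 1.21, CYCB2-4 at 1.099 and CYCA3-1 at 0.917. The last in the order were CYCB2-1 at 0.414, CYCB3-1 at 0.1503 and CYCB1-5 at 0.0478 CPM per kb. Family medians per kb were 4.94 for D-type, 3.59 for A-type and 1.099 for B-type cyclins and 3.57 for B-type CDKs. Neighbours in the order were separated in all 3 libraries only after CYCD3-2, CYCD3-3, CYCD3-1 and CYCB2-1, and every other pair of neighbours overlapped.

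**Figure D1:**
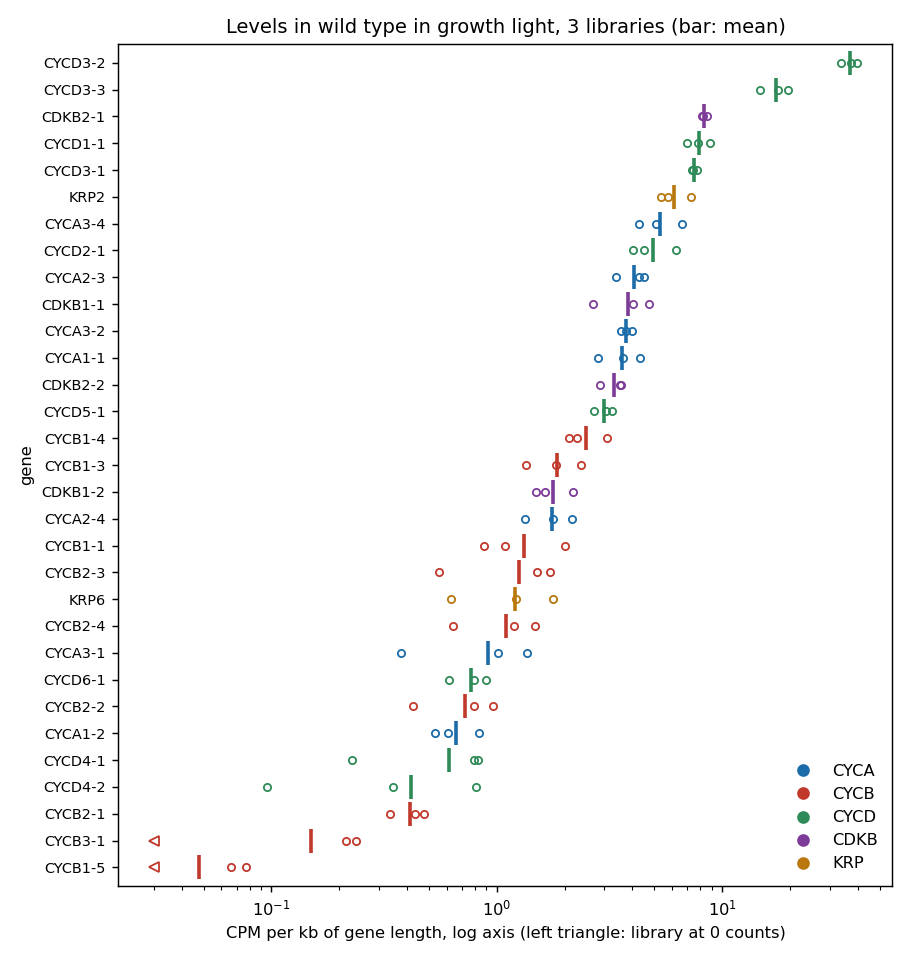
Level of each of the 31 genes in wild type in growth light, in CPM per kb of gene length on a log axis, as open circles for the 3 libraries and a bar for their mean, coloured by family. CYCD3-2 lies alone at 37.0 CPM per kb, and B-type cyclins take the last 3 places, down to CYCB1-5 at 0.0478.

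Counting limits differ with these levels. CYCD6-1, a cyclin of formative divisions in the root, had 158 counts over all libraries and shares 847 bases with AT4G03260, which had 45711 counts. Since no strand setting is stated, counts of CYCD6-1 and of the other 10 genes that overlap a neighbour may include reads of that neighbour. CYCA3-2 and CYCA3-4 lie in a tandem group with CYCA3-3 on chromosome 1, and reads shared by such copies could be split between them.

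In wild type, 2 h of high light lowered 5 of the 31 genes and raised 0, at an adjusted p under 0.05 (edgeR's quasi-likelihood test, Benjamini-Hochberg over all genes tested), where 24.8% of all genes were called in either direction. The 5 were 1 D-type cyclin, 3 A-type cyclins and KRP2. The median log2 fold change was -0.92 over the 31 genes against 0.03 over all genes tested, with 26 genes below 0 and 5 above. In these whole seedlings, fewer cells of a type and less RNA per cell cannot be told apart.

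CYCD1-1, a cyclin expressed early in seedling growth, had 22.2, 19.5 and 17.6 CPM in growth light and 10.4, 6.73 and 5.48 CPM in high light. The groups were apart, and the fall had the smallest adjusted p of the 31 genes, 0.002, with a log2 fold change of -1.39 ± 0.298 (SE). The mitotic cyclin gene CYCA1-1 had 5.13, 6.61 and 7.89 CPM in growth light and 0.0835, 0.280 and 2.56 CPM in high light. All 3 high-light libraries were lower, and replicate 3 was the least so (log2 fold change -2.63 ± 0.751, adjusted p = 0.015).

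CYCA3-4 had 6.64, 10.3 and 7.89 CPM in growth light and 1.59, 2.24 and 3.32 CPM in high light (log2 fold change -1.77 ± 0.524, adjusted p = 0.018). CYCA3-1 had 0.592, 1.59 and 2.16 CPM in growth light and 0 counts in 2 of the 3 high-light libraries, with 0.309 CPM in replicate 3 (-3.43 ± 1.22, adjusted p = 0.046). Both belong to the A3 cyclins, which are expressed from G1 to S phase, and in both the light groups did not overlap. The inhibitor gene KRP2 had 6.05, 6.53 and 8.26 CPM in growth light and 1.75, 4.11 and 1.37 CPM in high light (-1.55 ± 0.533, adjusted p = 0.039). This inhibitor was thus called lower with the cyclins. Its call was lost in 12 of 28 alternative fits, and that of CYCA3-1 in 18 of 26. The calls of CYCD1-1, CYCA1-1 and CYCA3-4 were lost in 1, 4 and 5 of 28.

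KRP6, the other inhibitor, had 1.84, 0.956 and 2.71 CPM in growth light and 2.00, 0.841 and 2.03 CPM in high light, overlapping throughout. CDKA-1 had 47.3, 55.3 and 49.6 CPM in growth light and 54.7, 43.0 and 54.0 CPM in high light. CDKB2-1 had 11.2, 11.1 and 11.8 CPM in growth light and 3.59, 2.24 and 9.51 CPM in high light. Its high-light libraries were all below the growth-light ones, without passing the test (log2 fold change -1.13, adjusted p = 0.065). In all, 10 of the 31 genes were lower in every high-light library, against 22.5% of all genes tested, and 0 were higher in every one, against 18.8%.

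**Figure D2:**
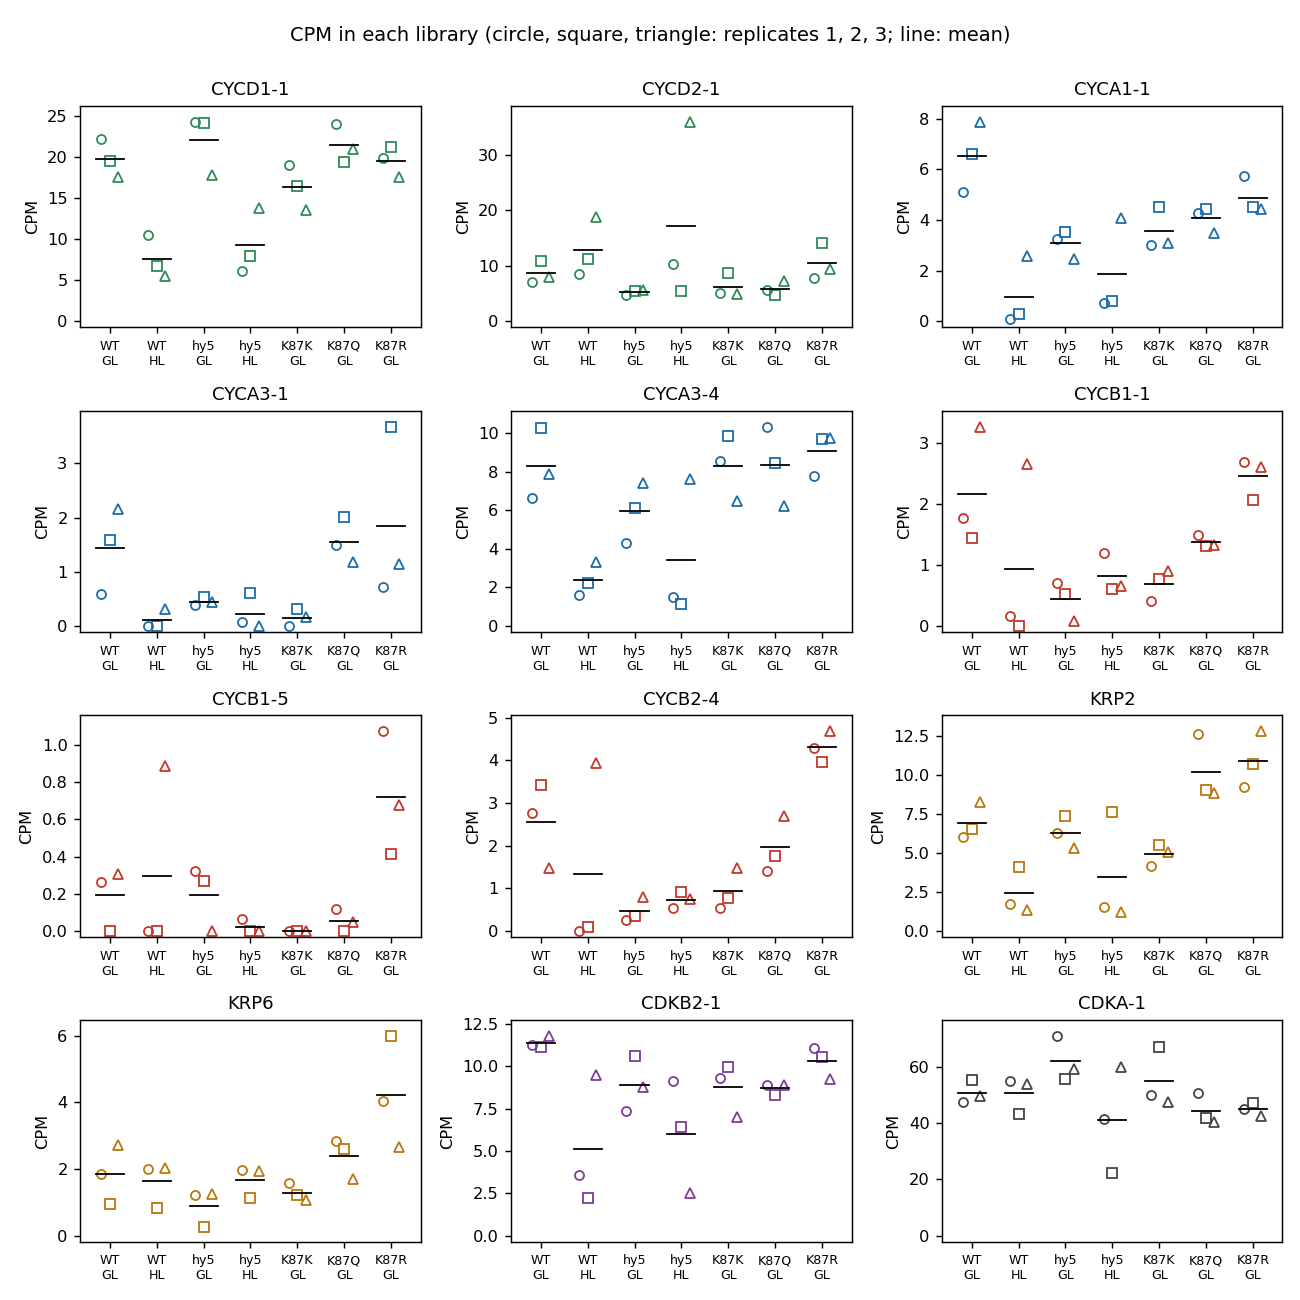
CPM in every library for 11 of the 31 genes and for CDKA-1, by group, with circles, squares and triangles for replicates 1, 2 and 3 and a line for the mean (GL growth light, HL high light). CYCD1-1 and KRP2 are lower in all wild-type high-light libraries, while the triangles of wild type in high light stand far above the other 2 replicates for CYCB1-1 and CYCB2-4.

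The B-type cyclins differed most between the high-light replicates of wild type. Their summed level was 14.1, 20.3 and 17.4 CPM in growth light and 1.75, 1.59 and 23.2 CPM in high light. Replicates 1 and 2 were thus far below growth light and replicate 3 above it. The counts of CYCB1-4 were 58, 71 and 67 in growth light and then 0, 0 and 100, and those of CYCB2-4 were 42, 43 and 24 and then 0, 1 and 89. Of the 31 genes, 8 were at 0 counts in the first, 9 in the second and 0 in the third of these libraries. Green shoot markers ran the other way over these replicates, with 59860, 36620 and 5571 CPM in wild-type replicates 1 to 3 against 60740 to 70370 CPM in growth light, and 7 root markers summed to 138, 77.9 and 12.1 CPM against 85.9 to 94.3 CPM. Of these 7, LRX1, IRT1, PIN2 and COBL9 were lower in every high-light library than in growth light. These 4 were called lower and 0 were called higher, where 24.8% of all genes were called. Without both replicates 3, 4 were called lower and 1 higher, against 23.7% and 22.8%. The part of the green shoot and root markers in the result was not tested.

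Without both high-light replicates 3, 20 of the 31 genes fell in wild type, against 23.7% of all genes tested, and 1, CYCD3-3, rose (log2 fold change 0.76, adjusted p = 0.01), against 22.8%. The falls then included CYCB1-1 (2 and 0 counts left), CYCB2-4 (0 and 1), and, as log2 fold changes, CYCA1-1 (-5.14), CDKB2-1 (-1.95), CDKB2-2 (-1.84), CYCD3-1 (-1.25) and CYCD3-2 (-1.08). Leaving out wild-type high-light replicate 3 alone gave 14 calls. With the spread taken from the 6 wild-type libraries alone, 3 genes were called, all lower (CYCD1-1, CYCD3-1 and CYCA3-4), against 15.8% of all genes in either direction, and with the replicate number as a block 0 were.

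In hy5, high light lowered CYCD1-1 and raised CYCD2-1, and the other 29 genes did not pass the test, where 36.5% of all genes were called. CYCD1-1 had 24.3, 24.1 and 17.9 CPM in growth light and 6.15, 7.95 and 13.7 CPM in high light. The groups were apart, as in wild type (log2 fold change -1.24 ± 0.296, adjusted p = 0.0028). CYCD2-1 had 4.73, 5.40 and 5.57 CPM in growth light and 10.2, 5.50 and 36.0 CPM in high light (1.73 ± 0.508, adjusted p = 0.012). These groups overlapped, replicate 3 was by far the highest, and without both replicates 3 the change no longer passed (0.62, adjusted p = 0.14).

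The median over the 31 genes in hy5 was -0.11 against 0.00 over all genes, and its sign turned to 0.18 when libraries were not scaled against each other. The summed B-type cyclins had 7.03, 7.17 and 7.96 CPM in hy5 in growth light and 7.27, 9.07 and 9.92 CPM in high light, a narrower spread of the sum than in wild type. Single genes still varied in hy5 in high light. Of these 9, 4 were at 0 counts in replicate 2 and 2 in replicate 3, and CYCB2-3 ran from 4 to 104 counts. The D-type sum ran from 97.8 to 114 CPM in growth light and stood at 67.8, 93.9 and 209 CPM in high light, with replicate 3 highest. Without both replicates 3, 4 genes fell in hy5 (CYCD1-1, CYCD3-1, CYCA3-4 and CYCA1-1), against 47.4% of all genes called. With the spread of the 6 hy5 libraries alone, as with the replicate block, 0 genes were called.

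Whether the light response of these genes differed between hy5 and wild type was tested as an interaction. No gene passed it in edgeR, 1 (CYCD3-2) had an unadjusted p under 0.05 and DESeq2 called 0, where 0.089% of all genes were called. Without both replicates 3, 11 genes passed (10 higher in hy5, 1 lower), against 25.2% of all genes. Among the 10 were CYCB1-1, CYCB2-4, CYCA1-1 (interaction 3.15 on the log2 scale), CDKB2-1 (1.78) and CDKB2-2 (1.76), and CYCD3-3 was the lower gene (-1.06). These calls compare 2 libraries with 2 in high light.

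In high light, between hy5 and wild type, edgeR called 0 of the 31 genes, with 2 at an unadjusted p under 0.05 (CYCD3-2 and CYCD5-1) and 0 in DESeq2, where 3.14% of all genes were called. No gene had groups that did not overlap. Without both replicates 3, 8 passed, against 30% of all genes, with CYCB1-1, CYCB2-4, CYCA1-1 (log2 fold change 2.06) and CDKB2-1 (1.41) among 7 that were higher in hy5 and CYCD3-3 (-1.31) lower.

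In growth light, cyclin levels in hy5 lay mostly below those of wild type, although edgeR called 0 of the 31 genes, DESeq2 0, and 3 had an unadjusted p under 0.05 (CYCB2-4, CYCB1-1 and CYCB2-3), where 0.217% of all genes were called. The median log2 fold change was -0.72 against -0.01 over all genes, with 27 genes below 0 and 4 above. The B-type cyclins had a median of -1.41, the A-type -1.06, the B-type CDKs -0.63, the KRP genes -0.57 and the D-type cyclins -0.49. In 14 of the 31 genes every hy5 library was lower than every wild-type one, against 22.2% of all genes tested, and in 0 was it higher, against 22%.

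CYCB1-1 had 1.78, 1.43 and 3.27 CPM in wild type and 0.703, 0.531 and 0.0884 CPM in hy5 (log2 fold change -2.25, adjusted p = 0.45). CYCB2-4 had 2.76, 3.42 and 1.48 CPM in wild type and 0.256, 0.354 and 0.796 CPM in hy5 (-2.45, adjusted p = 0.43). Both were apart between the genotypes, at 18 to 53 counts a library in wild type and 1 to 11 in hy5. CYCD3-1 had 14.5, 13.8 and 13.9 CPM in wild type and 6.46, 7.00 and 6.28 CPM in hy5 (-1.10, adjusted p = 0.57). CYCD1-1 did not separate, with 24.3, 24.1 and 17.9 CPM in hy5 against 22.2, 19.5 and 17.6 CPM in wild type.

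The number of calls in growth light rested on the spread that was used, since the fit of all 21 libraries also takes in the high-light libraries. With the spread of the 6 libraries alone, 11 genes fell in hy5 out of 26 tested, against 18.1% of all genes, and 0 rose, against 19.8%. They were CYCD2-1, CYCD3-1, CYCD3-2 and CYCD6-1, CYCA1-1, CYCA2-3 and CYCA2-4, and CYCB1-1, CYCB1-4, CYCB2-3 and CYCB2-4. In the fit of all libraries their adjusted p ran from 0.43 to 0.88.

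In K87K, the line with unchanged HY5, none of these genes passed the test against hy5. Here edgeR called 0 of 31 genes, 0 had an unadjusted p under 0.05 and DESeq2 called 0, where 0.84% of all genes were called. The median was 0.26 against 0.00 over all genes, and with the spread of the 6 libraries alone 0 of 20 tested genes were called, against 30.9%. CYCB1-1 had 0.410, 0.767 and 0.899 CPM in K87K, overlapping hy5 and below wild type. CYCD3-1 had 5.75, 12.7 and 8.42 CPM, a wide spread that lay below the 3 wild-type libraries.

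Against wild type, K87K had 0 genes called by edgeR and DESeq2 and 1 (CYCA3-1) with an unadjusted p under 0.05, where 1.09% of all genes were called. The median was -0.51 against -0.02, with 29 genes below 0 and 2 above. In 12 genes the K87K libraries were all lower than wild type, against 20.4% of all genes, and in 0 all higher, against 19.1%. With the spread of the 6 libraries alone CYCA1-1 (log2 fold change -0.88 in the fit of all libraries), CYCB2-4 (-1.46) and CYCB1-1 (-1.64) were called of 25 tested, all lower, against 27.9% of all genes. The comparisons with hy5 and with wild type share the K87K libraries.

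K87R had higher levels than hy5 in several cyclins and in both inhibitors. KRP6 and CYCB2-4 rose at an adjusted p under 0.05, where 22.4% of all genes were called, while 8 genes had an unadjusted p under 0.05 and DESeq2 called 5, all higher (KRP6, CYCB2-4, CYCB1-1, CYCB2-3 and CYCD3-1). The median over the 31 genes was 0.79 against 0.10 over all genes, with 27 above 0 and 4 below. By family it was 2.25 for B-type cyclins, 1.495 for KRP genes, 0.65 for A-type cyclins, 0.44 for B-type CDKs and 0.22 for D-type cyclins.

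KRP6 had 1.22, 0.266 and 1.24 CPM in hy5 and 4.03, 5.98 and 2.65 CPM in K87R, with every K87R library above every hy5 one (log2 fold change 2.20 ± 0.592, adjusted p = 0.012). CYCB2-4 had 0.256, 0.354 and 0.796 CPM in hy5 and 4.29, 3.96 and 4.68 CPM in K87R, again with no overlap (3.20 ± 1.03, adjusted p = 0.03). CYCB1-1 had 0.703, 0.531 and 0.0884 CPM in hy5 and 2.68, 2.07 and 2.60 CPM in K87R (2.42, adjusted p = 0.078). These groups were apart too, and K87R lay within the range of wild type, 1.43 to 3.27 CPM.

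KRP2 had 6.27, 7.35 and 5.31 CPM in hy5 and 9.21, 10.7 and 12.8 CPM in K87R (0.79, adjusted p = 0.28). CYCD3-1 had 6.46, 7.00 and 6.28 CPM in hy5 and 19.4, 16.6 and 17.8 CPM in K87R (1.45, adjusted p = 0.072). Every K87R library of both genes was above hy5 and above wild type. CDKB2-1 did not separate, with 7.35, 10.6 and 8.76 CPM in hy5 and 11.1, 10.5 and 9.26 CPM in K87R, nor did CYCD3-2 (log2 fold change 0.22, adjusted p = 0.68).

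In 17 of the 31 genes every K87R library was above every hy5 library, against 33.7% of all genes, and in 0 below, against 29.6%. The 17 included 7 of 9 B-type and 5 of 7 A-type cyclins, both KRP genes, 3 D-type cyclins and 0 of 4 B-type CDKs. On the spread of these 6 libraries, 15 genes rose of 27 tested, against 31.4%, and 0 fell, against 29.8%. Leaving out hy5 growth-light replicate 2 or K87R replicate 2 left 0 calls in the fit of the remaining libraries, and leaving out wild-type high-light replicate 3 gave 6.

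**Figure D3:**
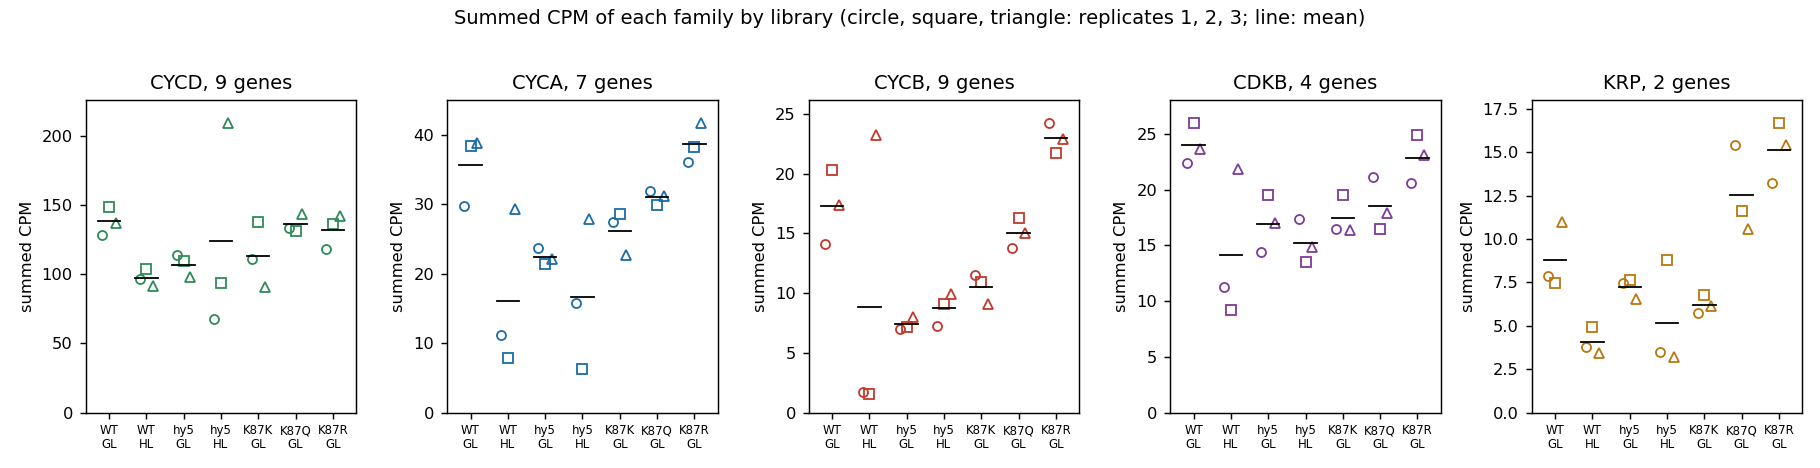
Summed CPM of the genes of each family in every library, by group, with circles, squares and triangles for replicates 1, 2 and 3 and a line for the mean (GL growth light, HL high light). The B-type cyclin sum lies at 7.03 to 7.96 CPM in hy5 in growth light and at 21.8 to 24.2 CPM in K87R, and the triangle of wild type in high light stands at 23.2 CPM above its other replicates.

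The summed levels showed the same order of groups for B-type cyclins. They were 7.03 to 7.96 CPM in hy5, 9.08 to 11.5 CPM in K87K, 13.8 to 16.3 CPM in K87Q, 14.1 to 20.3 CPM in wild type and 21.8 to 24.2 CPM in K87R. K87Q overlapped wild type, and no other neighbours in that order overlapped. The KRP sum was 6.54 to 7.62 CPM in hy5, 5.75 to 6.75 CPM in K87K, 7.49 to 10.97 CPM in wild type, 10.6 to 15.4 CPM in K87Q and 13.2 to 16.7 CPM in K87R. The D-type sum overlapped between wild type, K87K, K87Q and K87R.

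K87Q against hy5 gave 0 genes called by edgeR and by DESeq2 and 1 (KRP6) with an unadjusted p under 0.05, where 16.7% of all genes were called. KRP6 had 2.83, 2.59 and 1.72 CPM in K87Q, above the 3 hy5 libraries (log2 fold change 1.37, adjusted p = 0.11). KRP2 had 12.6, 9.04 and 8.87 CPM, above hy5 as well (0.69, adjusted p = 0.38), and CYCB2-4 1.42, 1.76 and 2.70 CPM (2.06, adjusted p = 0.17). The 3 genes were apart from hy5 in K87Q as in K87R, with smaller fitted values, and none passed the test between these lines.

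The median for K87Q against hy5 was 0.49 against 0.10 over all genes, with 23 genes above 0 and 8 below. In 11 genes every K87Q library was above hy5, against 31.2% of all genes, and in 0 below, against 27.8%. Within the 6 libraries compared, 9 genes rose of 24 tested, against 28%, and 0 fell, against 27.1%. They were CYCD3-1, CYCD3-2, CYCD3-3, CYCA2-3, CYCA3-1, CYCB1-4, CYCB2-4, KRP2 and KRP6. The comparisons of K87K, K87Q and K87R with hy5 share the hy5 libraries.

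Against wild type, neither K87Q nor K87R had a gene called by edgeR or DESeq2. At an unadjusted p under 0.05 there were 0 genes in K87Q and 1 (KRP6) in K87R, where 16.7% and 14.5% of all genes were called. The medians were -0.13 and 0.14, against 0.02 and 0.09 over all genes, and without scaling between libraries that of K87Q turned to 0.31. When the spread came from the 6 libraries compared, KRP2 rose and CYCA1-1 and CYCD6-1 fell in K87Q, of 28 tested, against 54.8% of all genes. In K87R KRP2, KRP6 and CYCB3-1 rose and CYCD3-2 and CYCD6-1 fell of 29 tested, against 54.1%. KRP2 thus stood above wild type in all libraries of both lines, at 8.87 to 12.8 CPM against 6.05 to 8.26 CPM.

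K87R and K87K, which differ in the residue, the line and the hy5 allele, differed in CYCB1-5 at an adjusted p under 0.05, where 15.1% of all genes were called. CYCB1-5 had 12, 9 and 13 counts in K87R and 0 in all 3 K87K libraries, so that it was at least 8.67-fold higher against a floor of 3 counts over the K87K group (adjusted p = 0.047). In hy5 it had 5, 3 and 0 counts in growth light and in wild type 4, 0 and 5. The call was lost in 17 of 26 alternative fits, among them the fit without a filter on low counts. KRP6 (log2 fold change 1.70, adjusted p = 0.052) and CYCA3-1 (3.53, adjusted p = 0.059) came next. DESeq2 called these 3 genes, and 5 had an unadjusted p under 0.05.

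CYCA3-1 had 0, 0.307 and 0.164 CPM in K87K, 1.49, 2.00 and 1.18 CPM in K87Q and 0.715, 3.68 and 1.14 CPM in K87R. Both substituted lines were above K87K in every library, at 0 to 4 counts a library in K87K. The median of K87R against K87K was 0.62 against 0.06 over all genes, and 14 genes had every K87R library higher, against 28% of all genes, and 0 lower, against 26.2%. Within these 6 libraries 11 of 28 tested genes rose, against 23.7%, and 0 fell, against 24.2%. Leaving out single libraries moved the count of calls from 0 to 5, the latter without hy5 high-light replicate 2.

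K87Q against K87K, both in hy5-1, gave 0 genes called by edgeR, where 15.3% of all genes were called. CYCA3-1 alone had an unadjusted p under 0.05 (log2 fold change 3.28, adjusted p = 0.077) and was the gene called by DESeq2, where 19.4% of all genes were. When only these 6 libraries gave the spread, KRP2 and CYCA3-1 rose of 26 tested, against 46.9% of all genes. KRP2 had 4.17, 5.52 and 5.07 CPM in K87K, below all K87Q and K87R libraries. The median was 0.31 against 0.04 over all genes, and 0.27 with CYCB1-5 at its counting bound.

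Between K87Q and K87R edgeR called 0 of the 31 genes, DESeq2 0, and 1 (CYCB1-5) had an unadjusted p under 0.05, where 0% of all genes were called. The median was -0.29 against 0.00. In 9 genes every K87Q library was below every K87R library, against 17.7% of all genes, and in 1, CYCD5-1, above, against 19.5%. When K87Q and K87R alone set the spread, CYCD2-1, CYCA3-2 and CYCB2-4 were lower in K87Q, of 29 tested, against 23.6% in either direction. CYCD2-1 had 5.70, 4.69 and 7.25 CPM in K87Q and 7.78, 14.1 and 9.41 CPM in K87R (log2 fold change -0.83, adjusted p = 0.72).

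**Figure D4:**
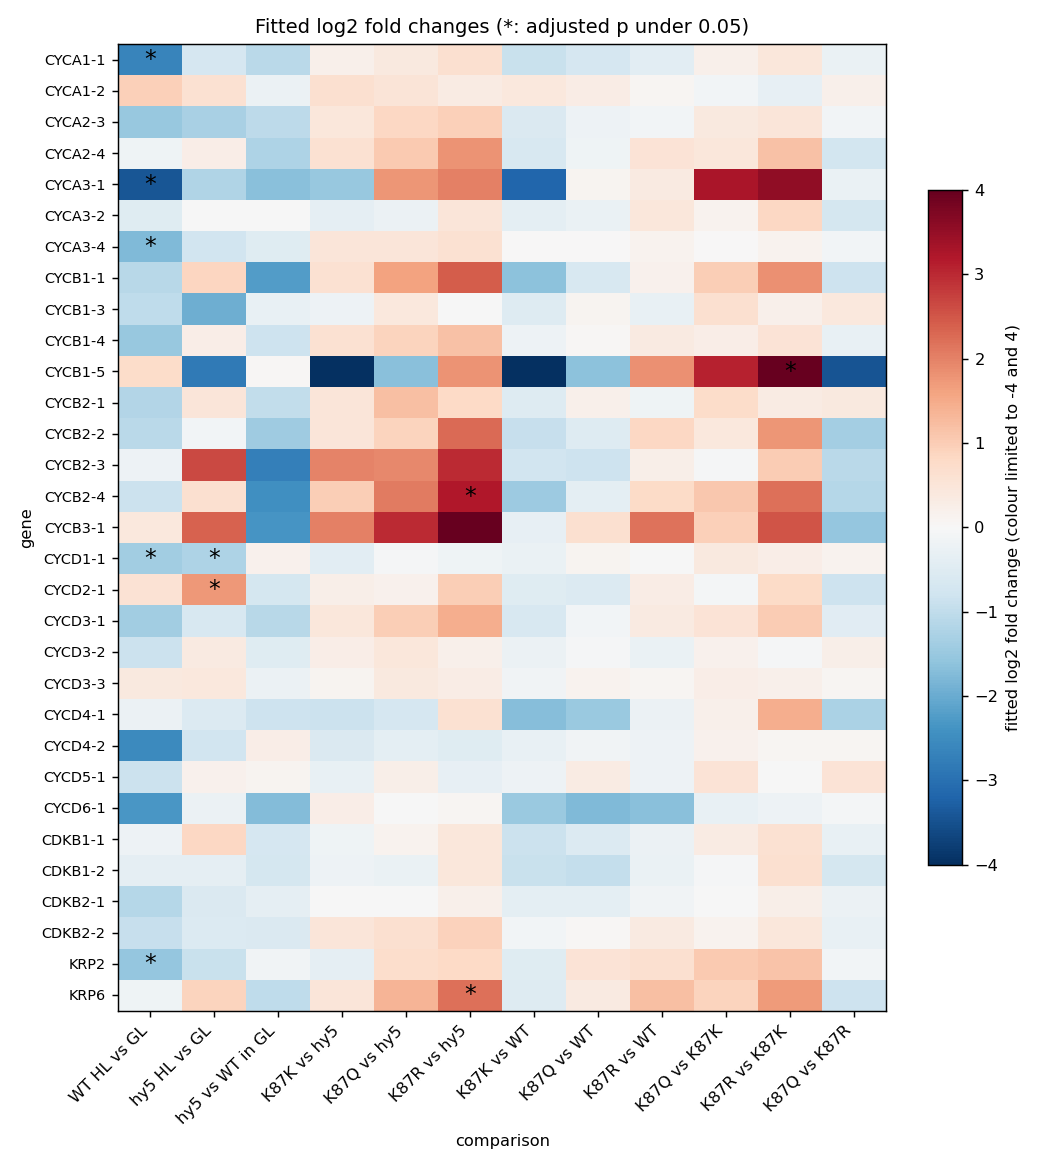
Fitted log2 fold changes of the 31 genes (vertical axis, by family) in 12 comparisons (horizontal axis), with the colour limited to -4 and 4 and an asterisk at an adjusted p under 0.05 from edgeR. Blue dominates in wild type under high light and in hy5 against wild type and red in K87R against hy5, with 10 asterisks in all, and values of CYCB1-5 against K87K rest on 0 counts there.

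**Figure D5:**
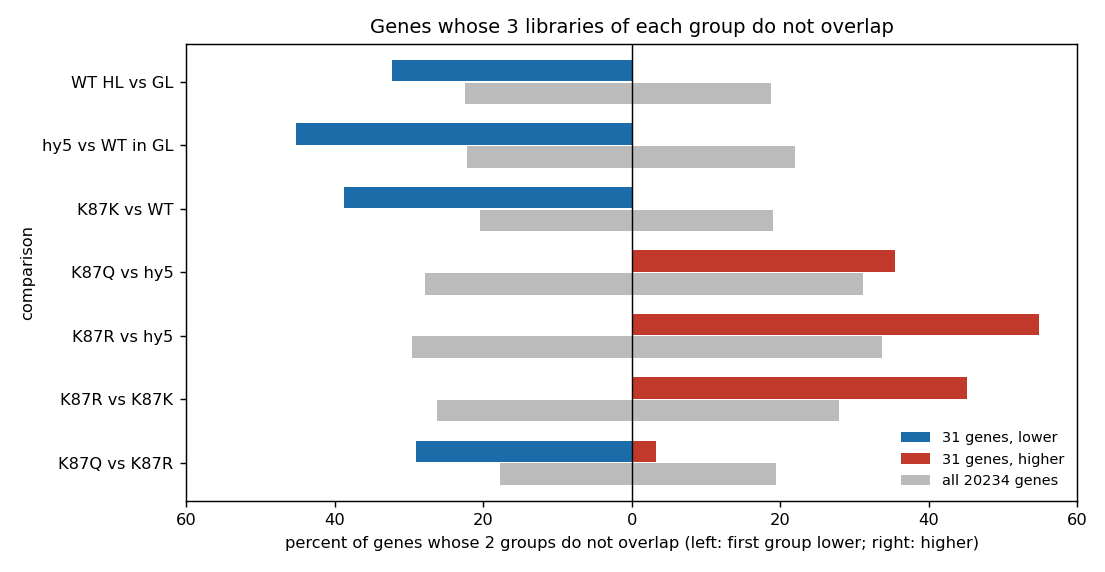
Percent of genes whose 3 libraries of one group all lie above (right) or below (left) the 3 of the other, for the 31 genes in colour and all 20234 genes tested in grey, in 7 comparisons. The coloured bars reach 17 of 31 genes for K87R against hy5 and 14 of 31 for hy5 against wild type in growth light, each on 1 side only, against 33.7% and 22.2% of all genes.

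Sums of green shoot, root and shoot apical meristem markers moved with the lines as well. Green shoot markers summed to 60740 to 70370 CPM in wild type, 74360 to 81280 in hy5, 35550 to 44430 in K87K, 12980 to 16410 in K87Q and 9361 to 10330 CPM in K87R. Root markers summed to 85.9 to 94.3 CPM in wild type, 136 to 143 in hy5, 101 to 154 in K87K, 29.1 to 34.4 in K87Q and 24.8 to 26.4 CPM in K87R. Of these 7, 3 were called lower in K87Q and 4 in K87R against wild type, and 0 higher. Over all genes 16.7% and 14.5% were called. On the spread of the 6 libraries 5 were lower and 1 higher in each line, against 54.8% and 54.1%. Root apical meristem markers (PLT1, PLT2 and WOX5) summed to 1.115 to 1.29 CPM in wild type, 0.959 to 1.68 in hy5, 0.153 to 0.654 in K87K, 0.977 to 1.18 in K87Q and 0.805 to 1.70 CPM in K87R. Markers of the shoot apical meristem summed to 6.45 to 8.09 CPM in wild type, 8.25 to 12.8 in hy5, 6.84 to 10.97 in K87K, 15.3 to 18.7 in K87Q and 17.0 to 19.5 CPM in K87R. Of that list WUS had 2 and CLV3 23 counts over all libraries and were not tested. Their part in the results of the lines was not tested.

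Of the 23 genes of the same families under other names, 20 were tested. In wild type SMR4, an inhibitor of the SIAMESE-related family, rose in high light (log2 fold change 3.34, adjusted p = 0.026), and KRP4 (-1.17), KRP1 (-1.99), SMR8 (-2.22) and the mitotic cyclin CYCB1-2 (-2.37) fell. In hy5 SMR4 (4.93), KRP7 (2.999, with overlapping groups) and KRP5 (1.74) rose and SMR2, SMR9 and SMR13 fell, from 106, 28 and 35 counts over the 3 growth-light libraries to 6, 0 and 0 in high light. These calls were 5 of the 20 genes in wild type and 6 in hy5, where 24.8% and 36.5% of all genes were called. On the spread of the 6 libraries compared SMR4 alone passed in each genotype, and KRP7, SMR9 and SMR13 were not tested there. Without both replicates 3, SMR8 no longer passed in wild type (adjusted p = 0.054) and the other 4 did. In hy5 all 6 then passed, among 3 genes higher and 10 lower, where 47.4% of all genes were called. CYCB1-2 averaged 8.63 ± 1.43 CPM in wild type in growth light, 3.66 ± 0.667 in hy5, 6.20 ± 2.52 in K87K, 8.98 ± 1.04 in K87Q and 9.40 ± 1.25 CPM in K87R (SD, n = 3).

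Inhibitors of this list also differed between the lines. SMR1, which promotes endoreduplication in sepals and leaves, rose in K87Q against hy5 (1.54, adjusted p = 0.037). KRP3 rose against K87K in K87Q (2.97, adjusted p = 0.023) and in K87R (3.23, adjusted p = 0.015), from 0.180 ± 0.131 CPM in K87K to 1.45 ± 0.537 and 1.74 ± 0.160 CPM (SD, n = 3). KRP4 fell in K87Q, by 1.42 on the log2 scale against K87K and by 1.25 against wild type. The KRP genes of these seedlings thus moved in both directions. Of the 20 genes, 1 was called in K87Q against hy5, 2 against K87K and 1 against wild type. Over all genes 16.7%, 15.3% and 16.7% were called. In K87R 1 was called against K87K, where 15.1% of all genes were.

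Lists of other cell cycle genes were read in the same fit. Of 20 DNA replication genes tested, 4 rose in K87R against hy5 and 0 fell, with a median of 1.04, where 22.4% of all genes were called in either direction. With the spread of the 6 libraries 17 rose and 0 fell, against 31.4% and 29.8% of all genes. The 4 were PCNA2 (1.02), the sliding clamp of the replication fork, MCM6 (2.72) and MCM2 (2.23) of the replicative helicase, and RNR1 (1.54), a ribonucleotide reductase subunit. Against K87K, PCNA1 (1.41), PCNA2 (0.97) and TSO2 (1.13) rose in K87R and PCNA1 (1.37) and TSO2 (1.39) in K87Q, where 15.1% and 15.3% of all genes were called. Against wild type CDT1B fell in K87Q (-2.62), as the 1 gene called, where 16.7% of all genes were. In hy5 in high light CDT1B (3.69) and MCM2 (2.03) rose with overlapping groups and 0 fell, where 36.5% were called. On the spread of the 6 hy5 libraries 0 of the list were called. In hy5 against wild type in growth light 0 of the 20 were called by edgeR and by DESeq2, 2 had an unadjusted p under 0.05, and 9 were lower with the spread of the 6 libraries, against 18.1% of all genes. In wild type in high light edgeR called 0 of the 20, where 24.8% of all genes were called, and DESeq2 1, with 1 at an unadjusted p under 0.05. Without both replicates 3 the list had 2 genes higher and 10 lower, against 22.8% and 23.7% of all genes. Their summed level was 133 to 142 CPM in wild type, 104 to 108 in hy5, 92.4 to 119 in K87K, 162 to 189 in K87Q and 192 to 212 CPM in K87R.

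Of 14 genes of mitosis and cytokinesis, KN (1.88), the syntaxin of the cell plate, PLE (2.85), a microtubule bundling protein, and CDC20.2 (1.68), an activator of the anaphase-promoting complex, rose in K87R against hy5 and 0 fell, a share near the 22.4% of all genes called. On the spread of the 6 libraries 10 rose and 1 fell, against 31.4% and 29.8%. CDC20.2 also rose in K87Q (1.82), as the 1 gene of the list called there, where 16.7% of all genes were. In high light the kinase gene AUR2 rose in wild type (1.97), and KN (2.83) and PLE (2.36) rose in hy5. These were 1 and 2 of the 14, where 24.8% and 36.5% of all genes were called. Without both replicates 3, 3 of the 14 were higher and 3 lower in wild type, and in hy5 4 were higher and 0 lower, PLE no longer among them (adjusted p = 0.069). Over all genes the shares were 22.8% and 23.7% in wild type, and 47.4% in either direction in hy5. The summed level of the list in wild type was 91.5, 64.8 and 108 CPM in high light against 56.6 to 57.7 CPM in growth light.

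Upstream regulators were called in high light as well. Of 9 genes of the E2F, DP and retinoblastoma group, DEL3 (2.53), E2FC (1.75), E2FB (1.51) and RBR1 (0.80) rose in wild type and 0 fell, and 5 rose in hy5, with E2FC (3.52) and E2FB (2.70) among them. Over all genes 24.8% were called in wild type and 36.5% in hy5, in either direction. Without both replicates 3 the same 4 rose and DEL1 fell in wild type, and 3 rose in hy5, where DEL3 (adjusted p = 0.06) and DPA (0.31) were lost. Over all genes 22.8% then rose and 23.7% fell in wild type, and 47.4% were called in hy5. On the spread of the 6 libraries compared, 2 of the 4 and 2 of the 5 passed. Of 4 MYB3R genes, MYB3R3 (2.20) and MYB3R5 (1.68) rose in wild type, and both rose in hy5 (3.04 and 4.13), also without both replicates 3 in each genotype. MYB3R5 in wild type did not pass on the spread of the 6 libraries (adjusted p = 0.076). MYB3R1 averaged 9.04 ± 0.774 CPM in wild type in growth light, 6.13 ± 0.584 in hy5, 18.4 ± 1.79 in K87Q and 20.4 ± 2.92 CPM in K87R (SD, n = 3). It rose against hy5 in both lines (1.58 and 1.73), as the 1 gene of the 4 called, where 16.7% and 22.4% of all genes were.

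P-type cyclins, which partner with CDKA-1 and respond to phosphate and sugar, were called lower in the substituted lines. High light gave calls in both directions in wild type, where CYCP1-1 rose and CYCP2-1 and CYCP4-1 fell. These were 1 higher and 2 lower of the 7 tested, where 24.8% of all genes were called. With high light in hy5, 4 fell and 0 rose, where 36.5% of all genes were called. Of 7 tested, CYCP2-1 (log2 fold change -3.94), CYCP4-2 (-5.41), CYCP4-1 (-2.22) and CYCP3-2 (-2.17) fell in K87R against hy5, and CYCP2-1 (-3.47), CYCP4-1 (-2.58) and CYCP4-2 (-3.82) fell in K87Q. These were 4 and 3 of the 7, where 22.4% and 16.7% of all genes were called. CYCP2-1 averaged 41.5 ± 3.19 CPM in hy5, 20.7 ± 2.99 in K87K, 3.73 ± 1.52 in K87Q and 2.68 ± 0.549 CPM in K87R (SD, n = 3). Of 7 regulators of organ growth, ANT, which prolongs cell division in young organs, rose against hy5 in K87Q (2.52) and K87R (2.77), as did GIF1 (1.28 and 1.42), a coactivator of growth-regulating factors. Of these 7, 3 were called in K87Q and 2 in K87R, where 16.7% and 22.4% of all genes were called.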

How the data were processed

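Whole-seedling poly-A RNA was sequenced in 21 libraries, 3 in each of 7 groups. The table deposited by the authors holds whole-number counts, not normalized. Per the submitters' processing notes, which assign no step to any tool, their tools were featureCounts 1.5.0-p3, HISAT2 2.0.5, fastp, DESeq2 1.20.0 and StringTie 1.3.3b, and the build was TAIR10. The strand setting is not given in the sources used here. Columns were joined to samples by name, with 0 left unmatched.

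The main test was edgeR 4.0.16 (R 4.3.3, limma 3.58.1) on all 21 libraries together, with filterByExpr by group, TMM scaling, a coefficient for each group, robust quasi-likelihood F tests of 14 contrasts and Benjamini-Hochberg adjustment over the 20234 genes tested of 32833. Every adjusted p is from this fit unless another spread or DESeq2 (1.42.0) is named, with no adjustment for the number of contrasts, several of which use the same libraries. The scripts were checked on simulated data. CPM are counts over TMM-scaled library sizes, the SE is the log2 fold change over the root of F, and ± on CPM is the SD. Depth, 7283290 to 22101539 counts, leaves counting error large for genes near 1 CPM, about 15.1 counts. A group at 0 counts was set to a floor of 3 counts over the group, for counting error only. P-values measure the spread between these libraries.

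The genes, lists and library-level examples were chosen with earlier results of these data known. Genes called in a comparison were named with their log2 fold change, library values were given for the genes called and for CYCB1-1, CDKB2-1 and CDKA-1, and CYCB1-4, CYCD3-1 and family sums were added after their values were seen. From other lists up to 4 genes per comparison with the smallest adjusted p were named, and the further family genes called in high light in wild type and in hy5 were added after their values were seen. Alternatives were other size factors, no filter, DESeq2, the spread of the compared groups alone, a replicate block and leaving out libraries, and, added after seeing the data, no scaling and growth-light libraries alone.

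Same-numbered libraries deviated together most between hy5 and wild type in high light (correlations 0.381, 0.159 and 0.483 of deviations from group means). Each of these groups held a library that stood apart, under the same number. The correlations therefore do not show that the numbers pair the samples. For hy5 against wild type in high light the block left the count of calls at 0.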

Additional observations from a re-analysis of the deposited data

How the results depend on the processing

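Counts of the 31 genes called depended on which libraries set the spread. With the spread of the compared groups alone, counts were 3 instead of 5 for high light in wild type and 0 instead of 2 in hy5. The same setting gave 11 instead of 0 for hy5 against wild type in growth light. Against hy5 it gave 9 instead of 0 for K87Q and 15 instead of 2 for K87R. Against wild type it gave 3, 3 and 5 instead of 0 for K87K, K87Q and K87R, against K87K 2 instead of 0 for K87Q and 11 instead of 1 for K87R, and 3 instead of 0 between K87Q and K87R.

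With the replicate number as a block, though no pairing by number was shown, the counts were 0 for high light in wild type and in hy5, 11 for hy5 against wild type in growth light, 1, 9 and 15 for K87K, K87Q and K87R against hy5, 4, 2 and 5 against wild type, 3 and 11 for K87Q and K87R against K87K, and 5 between K87Q and K87R. It changed no other count of calls.

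DESeq2 called 8 genes for high light in wild type, 5 for K87R against hy5, 1 for K87Q and 3 for K87R against K87K. Without a filter on low counts K87R against K87K had 0 calls. Without both high-light replicates 3 the counts were 21 for high light in wild type, 4 in hy5, 11 for the interaction, 3 and 8 for hy5 against wild type in growth and high light, 3 and 12 for K87Q and K87R against hy5, 1 for K87K against wild type, and 2 and 7 for K87Q and K87R against K87K. Without scaling between libraries, which moved the median of all genes most for K87R against hy5, from 0.10 to 1.05 on the log2 scale, the counts were 2 and 1 for high light in wild type and hy5, 2 and 12 for K87Q and K87R against hy5, 2 for K87R against wild type and 4 for K87R against K87K. With growth-light libraries alone they were 8 for hy5 against wild type, 2, 12 and 15 for K87K, K87Q and K87R against hy5, 5, 2 and 2 against wild type, 4 and 10 for K87Q and K87R against K87K, and 3 between K87Q and K87R.

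Leaving out 1 library at a time gave 2 to 14 calls for high light in wild type (2 without its growth-light or its high-light replicate 2), 2 to 5 in hy5 (5 without hy5 high-light replicate 1), 0 to 8 for the interaction, 0 to 1 and 0 to 5 for hy5 against wild type in growth and high light, 0 to 1 and 0 to 6 for K87Q and K87R against hy5, and 0 to 2 and 0 to 5 for K87Q and K87R against K87K. The call in K87R against K87K was lost without any single library of either line. The highest of these for wild type, the interaction, hy5 against wild type and K87R against hy5 came without wild-type high-light replicate 3. The cause of these differences was not tested. All 42 gene results followed under the alternatives kept their direction in every one that gave a value. These 42 were chosen with results of these data known, and the alternatives refit the same libraries. Their kept direction is therefore no independent test. Without scaling between libraries the median log2 fold change of the genes described here did change sign in some comparisons. It went from -0.11 to 0.18 for high light in hy5 and from -0.13 to 0.31 for K87Q against wild type. Depth limits the B-type cyclins, at 0 to 165 counts a library.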
